A study of Mus musculus with 6 samples.

Results

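A set of 40 genes of DNA replication and S phase was followed in dissected mouse dentate neuroepithelium, the hippocampal progenitor layer that gives rise to the dentate gyrus. The genes were chosen by name for origin licensing, the replicative helicase, the polymerases, the sliding clamp, nucleotide supply and the control of S phase entry. All 40 were found in the deposited table of 35274 genes, all are protein-coding, and all had a mean of at least 1 TPM (a transcript abundance per length, with all genes of a library summing to 1000000). The 6 libraries came from mice at embryonic day 14, with 2 libraries each for wild type, SOX11f/+ (1 floxed allele of Sox11, called haplodeficient in the labels) and SOX11f/f (2 floxed alleles, called homodeficient). Both floxed genotypes were compared with the same wild type libraries, and neither the labels nor the design text names a Cre driver. Separate embryos are not stated as the source of the libraries either. The p-values therefore describe only how these 6 libraries vary, which may be technical.

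A cell copies its genome once per cycle. In G1 the origin recognition complex, CDC6 and CDT1 load the ring of MCM2 to MCM7 onto DNA, a step called licensing. At the start of S phase CDC45 and GINS join the ring to make the active helicase. Polymerases alpha, delta and epsilon then copy both strands behind it. The PCNA clamp, which the RFC complex loads, holds polymerase delta to DNA. E2F transcription factors, released from the retinoblastoma protein by cyclin-dependent kinases, drive many of these genes, and in the embryonic hippocampus the dividing cells are radial glia and intermediate progenitors. SOX11 is a transcription factor best known from newborn neurons.

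The labels and the libraries were checked first. Sox11 was at 192 and 130 TPM in wild type, 56.1 and 50.1 TPM in heterozygous and 5.23 and 5.06 TPM in homozygous libraries, so it followed the labelled genotype in all 6. Radial glia genes marked the tissue in every library, with Sox2 between 73.0 and 104 TPM, and so did intermediate progenitor genes, with Eomes between 39.7 and 90.0 TPM. Genes of mature cell types were also present, with Gfap, of astrocytes, between 268 and 576 TPM and Camk2a, of excitatory neurons, between 121 and 496 TPM. Both genes are known mainly from the brain after birth, so these levels sit uneasily with the labelled age and tissue, which were not checked in another way. Wild type library 1 stood apart for the replication genes. It was the highest of the 6 libraries for 38 of 40 genes, and the median gene lay 0.37 above wild type library 2 on the scale used for all differences, log2(TPM + 1), against 0.12 over all 14518 genes tested. Without it, the difference from wild type moved by over 1.5 times for 34 of 40 genes in heterozygous and 30 of 40 in homozygous libraries, and 10 and 9 of them were no longer below 0. Values without it stand beside those differences of the 40 genes that moved this far.

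Promoter sequences show what many of these genes share beyond their choice by name. RefSeq windows on GRCm38.p6, from 250 bases before to 50 after a transcription start, were found for 32 of the 40 genes, some with several starts, and not for Ccne2, Gins1, Gins2, Gins4, Mcm4, Pole, Prim2 and Rfc2. The windows were searched on both strands for the 4 words TTTCCCGC, TTTCGCGC, TTTGCCGC and TTTGGCGC, which spell the textbook E2F site. A match was found in 13 of 32 genes (40.6%), against 4.5% of 10839 tested genes with a window and 2.6% of all 27025 genes with one. The median window held 61.3% GC for the replication genes and 60.7% for all tested genes. The 19 matches include 4 that overlap another match and 1 that overlaps a CCAAT box. The word CCAAT itself, the site of NF-Y, was in 59.4% of the 32 genes and 42.9% of tested genes, and TTTGAA, the core of the CHR element of mitotic genes, in 12.5% of the 32 genes and 13.97% of tested genes.

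The 250 bases before the start of 3 genes are given 5′ to 3′, with E2F words in capitals. Mcm6 has the most matches of any window, Rfc3 has a match close to the start, and Rrm2, the gene with the lowest homozygous value below, has none of these letters in its window.
Mcm6, chr1:128359706-128359955, minus strand: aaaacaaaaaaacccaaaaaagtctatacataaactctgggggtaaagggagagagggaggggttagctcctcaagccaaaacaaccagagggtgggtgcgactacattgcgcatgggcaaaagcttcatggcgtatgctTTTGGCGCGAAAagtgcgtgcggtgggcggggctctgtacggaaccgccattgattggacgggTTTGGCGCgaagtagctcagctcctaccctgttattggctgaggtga
Rfc3, chr5:151651209-151651458, minus strand: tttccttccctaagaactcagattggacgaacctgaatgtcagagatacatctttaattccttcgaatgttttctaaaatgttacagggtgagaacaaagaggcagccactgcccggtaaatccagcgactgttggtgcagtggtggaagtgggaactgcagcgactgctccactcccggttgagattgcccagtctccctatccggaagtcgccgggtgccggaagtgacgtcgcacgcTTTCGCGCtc
Rrm2, chr12:24708004-24708253, plus strand: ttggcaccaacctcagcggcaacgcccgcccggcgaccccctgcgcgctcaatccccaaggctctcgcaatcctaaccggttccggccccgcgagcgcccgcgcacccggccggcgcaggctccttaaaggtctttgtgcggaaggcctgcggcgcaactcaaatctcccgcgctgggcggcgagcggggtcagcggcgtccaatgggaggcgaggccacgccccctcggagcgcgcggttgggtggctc

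The 12 matches of the licensing and MCM genes are set side by side with their flanks, again 5′ to 3′ with the word in capitals, so that the shared letters can be seen. Positions count from the RefSeq start of that window, with +1 as the first transcribed base and negative numbers before it. Another annotation, GENCODE, begins Orc1, Cdc6 and Mcm7 further upstream, so their words at -27, -138 and -165 lie inside the gene there. The same holds for the Rfc3 word at -10.
Orc1, first base of the word at -27: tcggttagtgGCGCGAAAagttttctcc
Cdc6, first base of the word at -138: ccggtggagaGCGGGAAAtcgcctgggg
Cdt1, first base of the word at 33: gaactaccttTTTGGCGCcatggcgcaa
Mcm3, first base of the word at 20: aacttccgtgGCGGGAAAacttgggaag
Mcm3, first base of the word at 39: cttgggaagtTTTGGCGCcaag
Mcm5, first base of the word at -153: cgccaagaacTTTCGCGCcaaaacgtcc
Mcm5, first base of the word at -149: aagaactttcGCGCCAAAacgtccagcc
Mcm6, first base of the word at -110: ggcgtatgctTTTGGCGCgaaaagtgcg
Mcm6, first base of the word at -106: tatgcttttgGCGCGAAAagtgcgtgcg
Mcm6, first base of the word at -47: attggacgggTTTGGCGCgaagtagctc
Mcm7, first base of the word at -165: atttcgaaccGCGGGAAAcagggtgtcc
Mcm7, first base of the word at 17: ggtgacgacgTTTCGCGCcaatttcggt

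Among MCM2 to MCM7, 4 of the 5 genes with a window held a match, in Mcm5 and Mcm6 as a pair of overlapping words on opposite strands. Across genotypes, genes with and without a match had close medians. In homozygous libraries the median log2 difference from wild type was -0.32 for the 13 genes with a match and -0.32 for the 19 with a window and no match. In heterozygous libraries it was -0.28 and -0.24. A match is a description of letters and was not tested as a binding site.

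**Figure D1:**
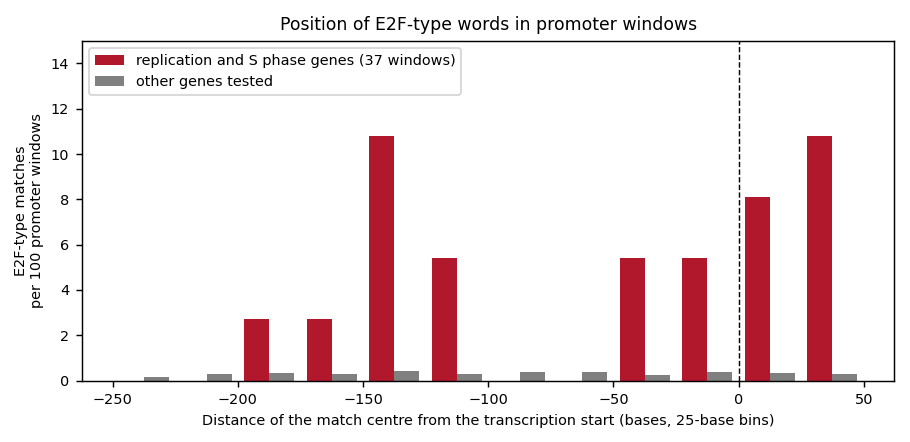
E2F-type matches per 100 promoter windows (vertical axis) in bins of 25 bases from the transcription start (horizontal axis, dashed line at the start), for the replication genes (red) and the other tested genes (grey). Red bars reach 10.81 in 2 bins, while grey bars lie between 0.17 and 0.41 in every bin.

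Across the whole set, every one of the 40 genes had a lower mean in heterozygous than in wild type libraries, and every one a lower mean in homozygous than in wild type libraries. A log2 difference below 0 was also the commoner direction over all genes tested, at 59.8% and 55.2%. The differences of the 40 genes were small, with a median of -0.26 on the log2 scale in heterozygous and -0.32 in homozygous libraries. Over all genes tested the medians were -0.06 and -0.04. None of the 40 passed the test of limma, a linear model with spread shared across genes, at an adjusted p of 0.05 in any comparison (background 0.0344% of genes for heterozygous and 0.0413% for homozygous against wild type), with lowest adjusted p of 0.322 and 0.113. At an unadjusted p of 0.05, 2 genes were lower and 0 higher in heterozygous libraries, and 10 lower and 0 higher in homozygous ones. Background shares for lower genes were 7.63% and 9.80%, and for higher genes 6.42% and 8.35%, beside 5% of the 40 genes lower in heterozygous and 25% lower in homozygous libraries. Where the heterozygous share lies against its background depends on the scaling, since it was 10% against 6.32% after median-ratio rescaling and 12.5% against 7.76% after quantile normalization. It also depends on the wild type libraries, being 0% against 2.01% without library 1 and 40% against 13.1% without library 2. The homozygous share without these libraries was 7.5% against 4.02% and 52.5% against 14.9%. In bulk tissue, fewer cells in S phase and less of these transcripts per cell cannot be told apart.

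The summed level of the 40 genes shows the place of wild type library 1. It was 1390 and 1097 TPM in wild type, 1083 and 989 TPM in heterozygous and 923 and 1018 TPM in homozygous libraries. Both wild type libraries lay above all 4 floxed ones, wild type library 2 just above heterozygous library 1, while the floxed genotypes overlapped. Both heterozygous libraries lay below both wild type libraries for 20 of 40 genes (background 28.9%), and both homozygous libraries did so for 20 of 40 (background 30.7%). For 0 of 40 genes did both libraries of either floxed genotype lie above both wild type libraries (background 17.1% and 23.6%). All 4 floxed libraries lay below both wild type libraries for 11 of 40 genes, or 27.5%, against a background of 21.0%. Without wild type library 1, the median difference was -0.09 in heterozygous and -0.15 in homozygous libraries, against -0.01 and 0.02 over all genes tested. Of the 40 genes, 30 and 31 still lay below wild type. Without wild type library 2 the medians were -0.44 and -0.47. The homozygous differences of the genes with the smallest p were also smaller without wild type library 1, at -0.61 for Rrm2, -0.55 for Gins1, -0.42 for Mcm7 and -0.42 for Tyms, where the full set of libraries gave -0.84, -0.82, -0.65 and -0.52.

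**Figure D2:**
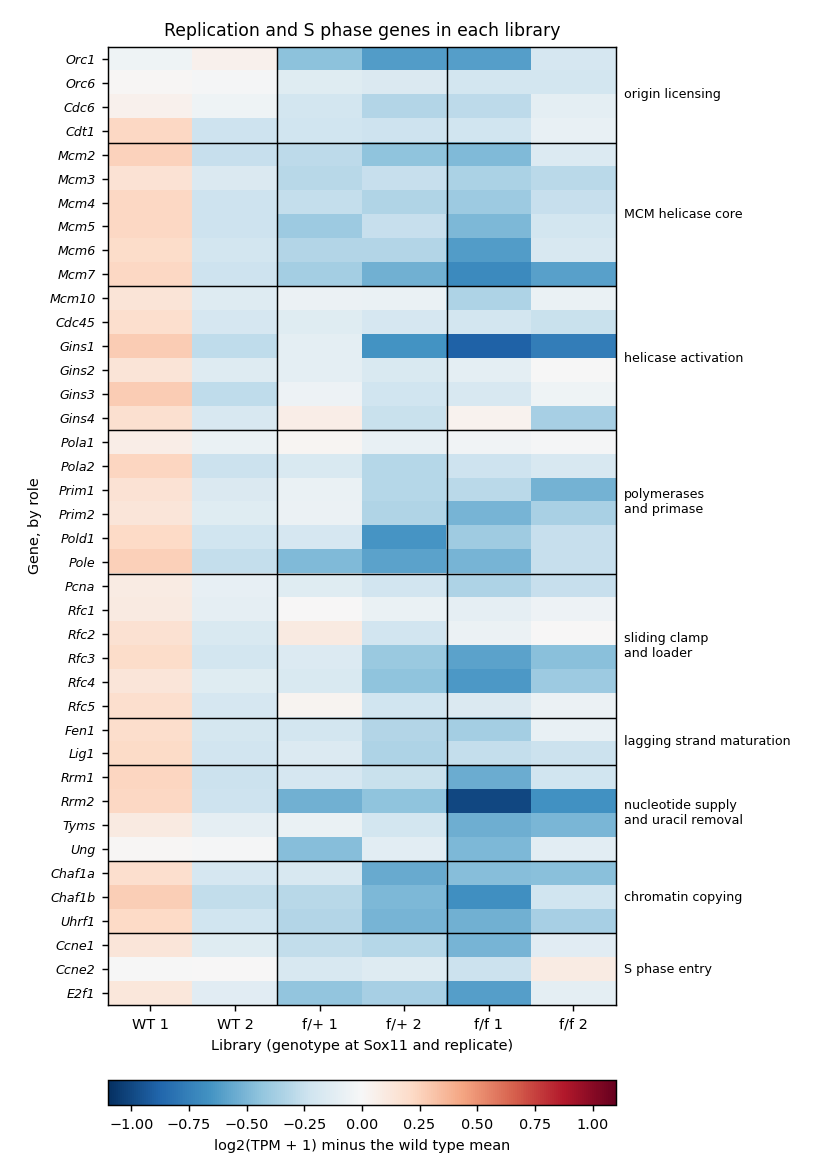
Heat map of the 40 genes (rows, by role) in the 6 libraries (columns), coloured by log2(TPM + 1) minus the mean of both wild type libraries. Wild type library 1 is the highest library for 38 of 40 genes, and the darkest blue cells are those of Gins1 and Rrm2 in homozygous library 1.

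Origin licensing genes were taken first. Orc6, a subunit of the origin recognition complex, varied little between replicates and measured 60.3 and 58.9 TPM in wild type, 54.1 and 53.3 TPM in heterozygous and 51.8 and 51.8 TPM in homozygous libraries. All floxed libraries lay below both wild type ones, by -0.15 (SE 0.09, limma adjusted p = 0.491) and -0.20 (SE 0.09, limma adjusted p = 0.307). Of its exon bases, 6.9% overlap the opposite-strand gene Vps35. Orc1, the ATPase subunit made anew in each G1, was the lowest member, at 1.87 and 2.08 TPM in wild type, 1.18 and 0.94 TPM in heterozygous and 0.95 and 1.61 TPM in homozygous libraries. Cdc6, the loader that binds ORC, ranged from 3.35 to 4.61 TPM with no overlap between wild type and floxed libraries. Cdt1, which brings the MCM ring, was at 16.5 TPM in wild type library 1 and between 11.8 and 13.1 TPM in the other 5, so the genotypes overlapped.

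Both heterozygous libraries lay below both wild type libraries for 6 of 6 subunits of the MCM ring (background 28.9%). In homozygous tissue this held for 3 of 6 (background 30.7%), Mcm3, Mcm4 and Mcm7. Mcm7 measured 101 and 73.2 TPM in wild type, 66.3 and 59.2 TPM in heterozygous and 52.6 and 56.4 TPM in homozygous libraries. These groups did not overlap, and the homozygous difference was -0.65 (SE 0.16, limma adjusted p = 0.130) and the heterozygous one -0.45 (SE 0.16, limma adjusted p = 0.322). Without wild type library 1 they were -0.42 and -0.22. Mcm6 measured 75.2 and 56.5 TPM in wild type, 51.9 and 52.0 TPM in heterozygous and 42.2 and 57.6 TPM in homozygous libraries, so homozygous library 2 overlapped wild type. Mcm2, Mcm3, Mcm4 and Mcm5 lay closer together, between 20.0 and 38.0 TPM in all libraries. Their homozygous differences ran from -0.32 to -0.35, and none passed. Without wild type library 1 they ran from -0.07 to -0.17.

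Since TPM is per length, subunits can be compared within a library, and such shares do not depend on how high a library stands as a whole. Although the ring holds 1 copy of each protein, Mcm7 made up 32.1% and 31.6% of the summed MCM2 to MCM7 transcripts in the wild type pair, 31.1% and 28.8% in the heterozygous pair and 29.0% and 26.2% in the homozygous pair. Mcm7 was the most abundant subunit in 5 libraries, and in homozygous library 2 Mcm6 was, at 26.7%. Mcm4 was the least abundant subunit in all 6, at 9.80% to 11.01%. The shares of Mcm7 did not overlap between wild type and floxed libraries, and they were given as a description with no test. Mcm7 shares 7.3% of its exon bases with Ap4m1 and 1.4% with Cops6 on the other strand.

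Genes of helicase activation were mixed. GINS is a ring of 4 proteins, and its subunit genes differed in how they varied. Gins1 measured 37.12 and 24.96 TPM in wild type, 28.2 and 18.9 TPM in heterozygous and 16.0 and 17.6 TPM in homozygous libraries. Homozygous libraries were below all others, with a difference from wild type of -0.82 (SE 0.24, limma adjusted p = 0.169), or -0.55 without wild type library 1, while the heterozygous libraries overlapped wild type. Gins4 stood at 36.0 and 28.0, 33.5 and 26.6, and 32.6 and 24.4 TPM in the same order, so all 3 genotypes overlapped. Gins2 ranged from 15.1 to 18.9 TPM and Gins3 from 4.34 to 6.84 TPM, also with overlap. Of the summed GINS transcripts, Gins1 made up 37.6% and 34.4% in the wild type pair, 34.1% and 29.1% in the heterozygous pair and 23.2% and 27.3% in the homozygous pair. Gins2 shares 67.3% of its exon bases with the opposite-strand gene Gse1, so its level is uncertain without stranded reads.

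Cdc45, the helicase cofactor, was at 12.97 TPM in wild type library 1 and between 9.35 and 10.2 TPM in the other 5. Both of its homozygous libraries lay below wild type library 2 (9.80 TPM), by less than the gap between the wild type libraries. Mcm10, which helps start the helicase, ranged from 4.55 to 6.73 TPM with overlap.

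**Figure D3:**
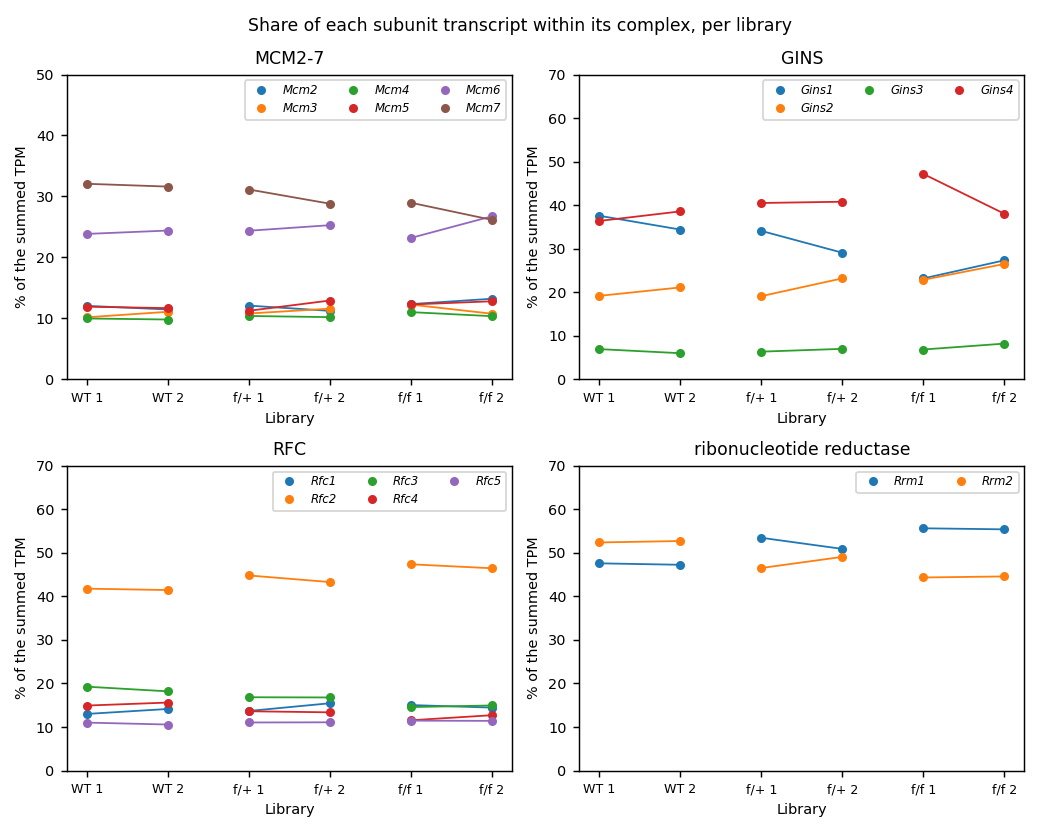
Share of each subunit in the summed TPM of its complex (vertical axis, percent) in each library (horizontal axis), for MCM2 to MCM7, GINS, RFC and ribonucleotide reductase, with lines joining libraries of 1 genotype. Rfc2 has shares of 41.5% and 41.8% for wild type against 46.5% and 47.4% for homozygous libraries, and Rrm1 and Rrm2 change order between wild type and floxed libraries.

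Polymerase genes showed a similar spread. Prim2, the large primase subunit, measured 24.6 and 20.3 TPM in wild type, 21.4 and 17.5 TPM in heterozygous and 15.4 and 17.2 TPM in homozygous libraries (homozygous difference -0.44, SE 0.16, limma adjusted p = 0.237). Prim1, the catalytic primase subunit, stood at 31.7 and 25.1, 26.7 and 22.5, and 22.7 and 19.3 TPM in the same order (-0.41, SE 0.17, limma adjusted p = 0.267, and -0.25 without wild type library 1). For both genes homozygous libraries lay below wild type ones and heterozygous libraries overlapped them. Pole, the catalytic subunit of the leading strand polymerase, had its lowest mean in heterozygous tissue, though the floxed genotypes overlapped. It measured 10.2 and 6.81 TPM in wild type, 5.69 and 5.21 TPM in heterozygous and 5.55 and 6.84 TPM in homozygous libraries. Its heterozygous difference was -0.54 (SE 0.23, limma adjusted p = 0.363), or -0.28 without wild type library 1. Pold1, of the lagging strand polymerase, ranged from 9.11 to 17.5 TPM and Pola2 from 14.5 to 21.7 TPM. Pola1, the catalytic subunit of polymerase alpha, was nearly level at 6.78 to 7.62 TPM, and its sign turned above 0 after median-ratio rescaling.

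The clamp gene Pcna was the most abundant member, in the 94.7th percentile of tested genes. It was at 218 and 191 TPM in wild type, 185 and 176 TPM in heterozygous and 161 and 171 TPM in homozygous libraries, with no overlap between the genotypes. The homozygous difference was -0.30 (SE 0.10, limma adjusted p = 0.201) and the heterozygous one -0.18 (SE 0.10, limma adjusted p = 0.452), the latter being -0.08 without wild type library 1. Processed copies of Pcna were at most 0.19 TPM in any library.

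All 5 clamp loader genes had lower means in both floxed genotypes, with differences of unlike size. Rfc4 measured 31.5 and 26.1 TPM in wild type, 25.5 and 20.9 TPM in heterozygous and 18.2 and 21.5 TPM in homozygous libraries, and all floxed libraries lay below wild type (homozygous difference -0.51, SE 0.16, limma adjusted p = 0.189). Rfc3 stood at 40.6 and 30.4, 31.5 and 26.2, and 23.0 and 25.3 TPM in the same order (-0.53, SE 0.17, limma adjusted p = 0.196), with -0.32 without wild type library 1, and its heterozygous libraries overlapped wild type. Rfc2, in contrast, stood at 88.1 and 69.4, 83.9 and 67.6, and 74.7 and 78.6 TPM, so the homozygous libraries lay between the wild type ones. Rfc1, the large subunit, ranged from 23.7 to 27.4 TPM and Rfc5 from 17.3 to 23.2 TPM, both with overlap. Within the loader, Rfc3 made up 19.3% and 18.2% in the wild type pair, 16.8% and 16.8% in the heterozygous pair and 14.6% and 15.0% in the homozygous pair, so its share had the order of the genotypes without overlap. Opposite-strand genes share 12.7% of the exon bases of Rfc4 (Eif4a2), 15.1% of Rfc2 (Lat2) and 10.7% of Rfc5 (Wsb2). The log2 differences of Rfc1 and Rfc2 were near 0, and those of Rfc2 in both comparisons, and of Rfc1 in heterozygous tissue, turned above 0 after either rescaling.

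Genes that complete the lagging strand overlapped in part. Fen1, the flap nuclease, measured 26.1 and 19.7 TPM in wild type, 19.5 and 17.9 TPM in heterozygous and 17.2 and 21.3 TPM in homozygous libraries. Lig1, the ligase that joins Okazaki fragments, stood at 31.8 and 23.4, 24.5 and 21.4, and 22.5 and 23.0 TPM. For Fen1 the heterozygous libraries, and for Lig1 the homozygous ones, lay below both wild type libraries.

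Nucleotide supply held the gene with the smallest p of the set. Rrm2, the small subunit of ribonucleotide reductase that cells make in S phase, measured 59.3 and 43.0 TPM in wild type, 34.8 and 36.8 TPM in heterozygous and 24.7 and 31.4 TPM in homozygous libraries. The 3 genotypes did not overlap. The homozygous difference was -0.84 (SE 0.18, limma adjusted p = 0.113), a ratio of 0.560 on the TPM + 1 scale, and the heterozygous one -0.49 (SE 0.18, limma adjusted p = 0.331), the latter being -0.26 without wild type library 1. Rrm1, the large subunit, measured 53.8 and 38.6 TPM in wild type, 40 and 38.2 TPM in heterozygous and 31.0 and 39.0 TPM in homozygous libraries, and its genotypes overlapped. Rrm2 made up 52.4% and 52.7% of the transcripts of both subunits in the wild type pair, 46.5% and 49.1% in the heterozygous pair and 44.4% and 44.6% in the homozygous pair. It is also the only member on chromosome 12, at chr12:24708241-24714146 on GRCm38, and lies 2.62 megabases from Sox11, so it shares a chromosome with the altered allele.

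Tyms, thymidylate synthase, was the member with the smallest p between the floxed genotypes. It measured 28.9 and 25.1 TPM in wild type, 25.5 and 23.3 TPM in heterozygous and 18.3 and 18.6 TPM in homozygous libraries. Heterozygous libraries overlapped wild type, and homozygous libraries lay below all others. The homozygous difference was -0.52 from wild type (SE 0.13, limma adjusted p = 0.132) and -0.38 from heterozygous libraries (SE 0.13, limma adjusted p = 1). Ung, which removes uracil from DNA, was at 13.6 and 13.3 TPM for wild type, and library 2 of both floxed genotypes, at 12.3 TPM each, lay close below, against 9.42 and 9.21 TPM in library 1.

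Chromatin copying genes had lower means in both floxed genotypes. Uhrf1, which brings the maintenance DNA methyltransferase to new DNA, measured 32.7 and 23.8 TPM in wild type, 22.0 and 19.2 TPM in heterozygous and 19.0 and 21.5 TPM in homozygous libraries. All floxed libraries lay below wild type, and the floxed genotypes overlapped. Its differences were -0.42 (SE 0.18, limma adjusted p = 0.360) and -0.45 (SE 0.18, limma adjusted p = 0.262), and -0.20 and -0.22 without wild type library 1. Chaf1a and Chaf1b, of the CAF-1 histone chaperone, had homozygous differences of -0.47 and -0.45, and of -0.28 and -0.18 without wild type library 1. Chaf1a shares 52.5% of its exon bases with Ubxn6 on the other strand, so its level is uncertain.

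For the 3 genes of S phase entry, heterozygous libraries lay below wild type without overlap (background 28.9%), and for 0 of 3 did homozygous libraries (background 30.7%), with none passing the test. E2f1, the transcription factor, measured 22.6 and 18.9 TPM in wild type, 15.1 and 15.8 TPM in heterozygous and 13.3 and 19.1 TPM in homozygous libraries, where library 2 overlapped wild type. Its heterozygous difference was -0.40 (SE 0.20, limma adjusted p = 0.408). Ccne1 and Ccne2, the E cyclins, ranged from 7.19 to 11.8 TPM and from 9.90 to 12.6 TPM, and Ccne2 was the gene that was highest in a homozygous library. Ccne2 shares 17.4% of its exon bases with Ints8 on the other strand.

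**Figure D4:**
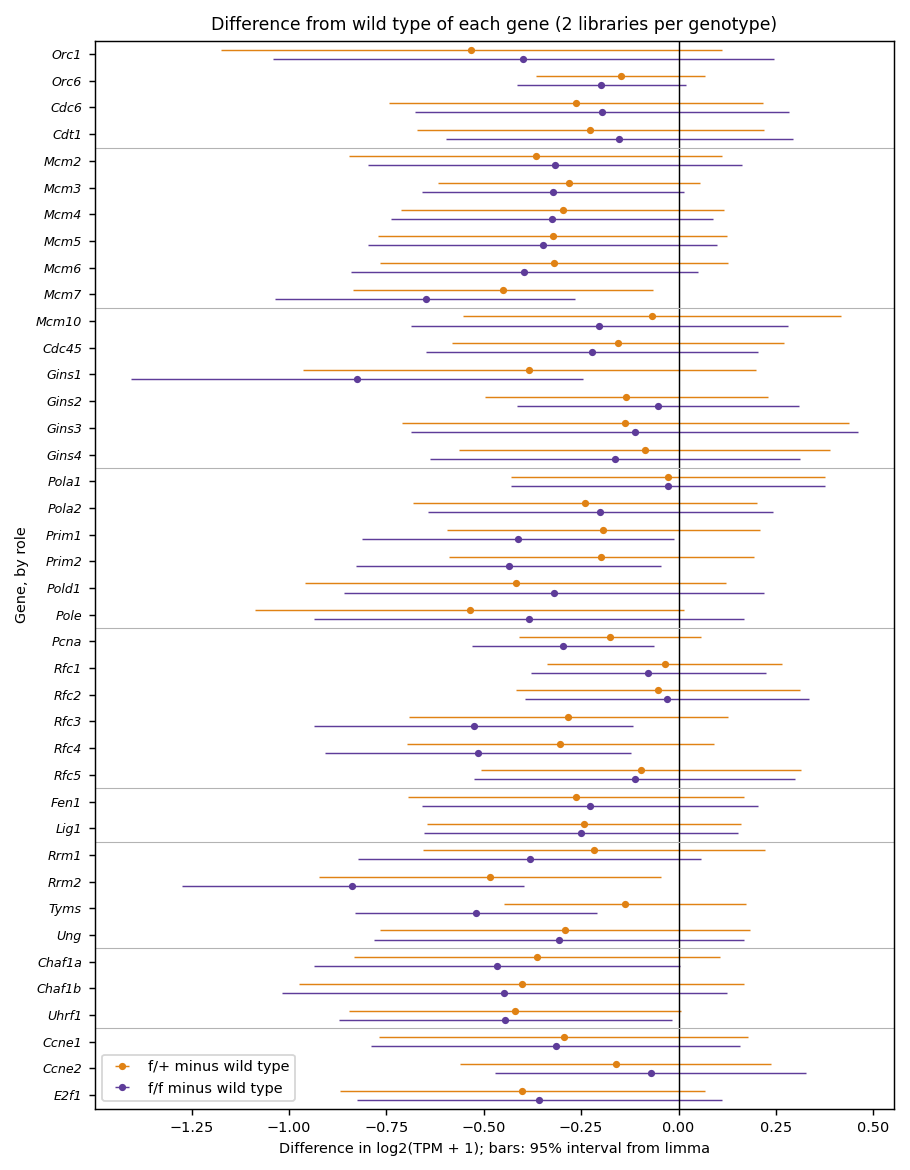
Difference in log2(TPM + 1) from wild type (horizontal axis) of each gene (vertical axis, by role) in heterozygous (orange) and homozygous (purple) libraries, with 95% intervals from limma that are not adjusted for the number of genes. All points lie below 0, and 10 homozygous and 2 heterozygous intervals lie wholly below it.

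The members were then set against each other. Each gene was taken relative to the median member of its library, which removes any shift that all members share, and then relative to the wild type mean. Centring in this way sets members on both sides of 0, so only the spread between them is described. In homozygous libraries the lowest were Rrm2, at -0.58 and -0.36, Gins1, at -0.47 and -0.46, and Mcm7, at -0.28 and -0.30. Next were Rfc3, Tyms and Rfc4, between -0.10 and -0.21. The highest were Pola1, at 0.38 and 0.29, Rfc2, at 0.36 and 0.31, and Gins2, at 0.32 and 0.30. In wild type libraries these 9 genes lay within 0.13 of their mean. These genes were picked after their values were seen and carry no test.

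Homozygous and heterozygous libraries were hardly separated by the set. The median difference was -0.03, against 0.01 over all genes, and 26 of 40 genes had a lower mean in homozygous libraries (background 45.9%). Both homozygous libraries lay below both heterozygous ones for 9 of 40 genes (background 13.7%) and above them for 0 (background 15.3%). At an unadjusted p of 0.05, 1 gene was lower, Tyms, against 0.902% of all genes, 0 were higher, against 1.14%, and 0 passed adjustment (background 0.0138%). Heterozygous means lay below the midpoint of wild type and homozygous means for 34 of 40 genes (background 58.6%), with a median of -0.12 over the 40. At an unadjusted p of 0.05, 0 of 40 departed from the midpoint, where 2.10% of all genes did so downwards and 1.97% upwards. Of the 40, 0 passed adjustment by limma (background 0.00689%).

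Other genes of replication were taken from a list of 50 that holds no member. None passed limma's test in the comparisons with wild type. Of the 50, 42 lay below wild type in heterozygous (background 59.8%) and 44 in homozygous libraries (background 55.2%), and the medians were -0.21 and -0.26. At an unadjusted p of 0.05, 7 (14%, background 7.63%) were lower and 1 (2%, background 6.42%) higher in heterozygous libraries. In homozygous ones 8 (16%, background 9.80%) were lower and 0 (background 8.35%) higher. The median of this list, relative to the wild type mean, lay at 0.13 and -0.13 in wild type libraries 1 and 2. Differences without wild type library 1 were not computed for these 50 genes. Nasp, a histone chaperone, was at 195 and 156 TPM in wild type, 131 and 131 TPM in heterozygous and 118 and 124 TPM in homozygous libraries (homozygous difference -0.53, SE 0.12, limma adjusted p = 0.119, and heterozygous difference -0.41, limma adjusted p = 0.286). Top1, which relaxes DNA ahead of the fork, stood at 106.7 and 98.96, 86.7 and 86.3, and 80.0 and 74.7 TPM in the same order (-0.41, SE 0.09, limma adjusted p = 0.119, and -0.25, limma adjusted p = 0.331). Dck, which salvages deoxynucleosides, and Dnmt1, the maintenance methyltransferase, had homozygous differences of -0.53 and -0.41 (limma adjusted p of 0.148 and 0.178). Orc3, of the origin recognition complex, was lower in heterozygous libraries by -0.36 and Dctpp1, a nucleotide pyrophosphatase, was the higher one by 0.29, with limma adjusted p of 0.300 and 0.331.

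Among 28 tested genes of G1 to S control, which include both activators and inhibitors, the medians were -0.17 in heterozygous and -0.18 in homozygous libraries. At an unadjusted p of 0.05, 0 were past the threshold in heterozygous libraries (background 7.63% lower and 6.42% higher), and 4 (14.3%, background 9.80%) were lower in homozygous ones, with 0 passing limma's adjustment in either. Those 4 were Cdk4, the kinase that opens G1, Cdc25a, a phosphatase that activates CDK2, Fbxo5, an inhibitor of the anaphase-promoting complex, and Tfdp1, the partner of E2F proteins. Cdk4 was at 366 and 255 TPM in wild type, 261 and 227 TPM in heterozygous and 212 and 222 TPM in homozygous libraries (homozygous difference -0.49, limma adjusted p = 0.215). Cdc25a, Fbxo5 and Tfdp1 had homozygous differences of -0.56, -0.46 and -0.28 (limma adjusted p of 0.229, 0.246 and 0.260). The median of the 28 genes, relative to the wild type mean, lay at 0.14 and -0.14 in wild type libraries 1 and 2. Their differences without wild type library 1 were not computed. In heterozygous libraries the smallest p belonged to Rb1, the retinoblastoma gene (-0.24), Cdk6, a partner of the D cyclins (-0.54), Cdkn1a and E2f3 (-0.37), with limma adjusted p of 0.362 to 0.426. Cdkn1a, the p21 inhibitor of S phase, measured 15.6 and 14.5 TPM in wild type, 29.4 and 18.9 TPM in heterozygous and 17.7 and 31.6 TPM in homozygous libraries, all floxed libraries being higher (heterozygous difference 0.62, limma adjusted p = 0.406).

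Other gene lists varied across the same libraries, and their part in the replication values was not tested. Relative to the wild type mean, the median of the 40 genes lay at 0.18 and -0.18 for the wild type pair, -0.18 and -0.32 for the heterozygous pair and -0.39 and -0.21 for the homozygous pair. For 25 genes of G2 and mitosis the same values were 0.33 and -0.33, -0.06 and -0.50, and -0.66 and -0.52. In homozygous libraries all 25 mitotic genes had lower means than in wild type (background 55.2%), with a median of -0.57. In heterozygous ones 23 of 25 did (background 59.8%), with a median of -0.26, and 0 passed limma's adjustment in either genotype. Wild type library 2, at -0.33, lay between the heterozygous libraries on this list, while both homozygous libraries lay below it. Differences without wild type library 1 were not computed for this list. At an unadjusted p of 0.05, 12 of the 25 (48%, background 9.80%) were lower in homozygous and 0 (background 7.63%) in heterozygous libraries. The library values of 14 radial glia genes were 0.23 and -0.23, 0.15 and -0.18, and 0.01 and 0.07. For intermediate progenitor genes, 8 of 9 listed being tested, they were 0.22 and -0.22, -0.27 and -0.40, and -0.65 and -0.39. Wild type library 1 lay above wild type library 2 on each of these lists.

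Several lists of glia and of cells outside the neuroepithelium had higher values in floxed libraries. The summed level of 14 microglia genes was 263 and 317 TPM in wild type and 419 to 652 TPM in floxed libraries, with 14 of 14 means higher than wild type in both floxed genotypes and Csf1r at 14.7 to 33.5 TPM. None passed limma's adjustment, and 12 in heterozygous (85.7%, background 6.42%) and 11 in homozygous libraries (78.6%, background 8.35%) were higher at an unadjusted p of 0.05. The 12 ependymal and motile cilia genes summed to 13.8 and 11.5 TPM in wild type and 171 to 561 TPM in floxed libraries. All 12 were higher at an unadjusted p of 0.05 in both floxed genotypes (100%, background 6.42% and 8.35%). Of these, 2 genes, Ccdc153 and Tmem212, also passed limma's adjustment in both. Ccdc153 was listed at 0.59 and 0 TPM in wild type and 36.9 to 69.2 TPM in floxed libraries (limma adjusted p of 0.00304 in heterozygous and 0.00178 in homozygous libraries). Tmem212 was listed at 0 in wild type and 11.2 to 21.9 TPM in floxed libraries (limma adjusted p of 0.0122 and 0.00647). The 11 choroid plexus genes summed to 7.70 and 6.49 TPM in wild type, 11662 and 14.8 TPM in heterozygous and 6681 and 215 TPM in homozygous libraries, with Ttr at 3.07 and 2.04, 11259 and 4.44, and 6421 and 184 TPM. The choroid plexus gene Kcnj13 was listed at 0 in wild type library 2. The 6 astrocyte genes summed to 670 and 617 TPM in wild type and 785 to 1116 TPM in floxed libraries, and the 11 oligodendrocyte lineage genes to 193 and 286 TPM in wild type and 332 to 472 TPM in floxed libraries. Erythroid genes, with 7 of 8 listed in the table, summed to 774 and 292 TPM in wild type, 591 and 400 TPM in heterozygous and 501 and 522 TPM in homozygous libraries. The 10 endothelial genes summed to 145 to 286 TPM, 12 young neuron genes to 4525 to 6410 TPM and 7 mature neuron genes to 427 to 1180 TPM. Each of these sums overlapped between wild type and floxed libraries. Among the 12 young neuron genes, 4 were lower and 0 higher at an unadjusted p of 0.05 in each floxed genotype. That was 33.3%, against a background of 7.63% for heterozygous and 9.80% for homozygous libraries, and 0 passed limma's adjustment. Leaving out the 2 libraries with the most Ttr, heterozygous library 1 and homozygous library 1, the median difference of the 40 genes was -0.32 for heterozygous and -0.21 for homozygous tissue, each then resting on 1 floxed library.

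**Figure D5:**
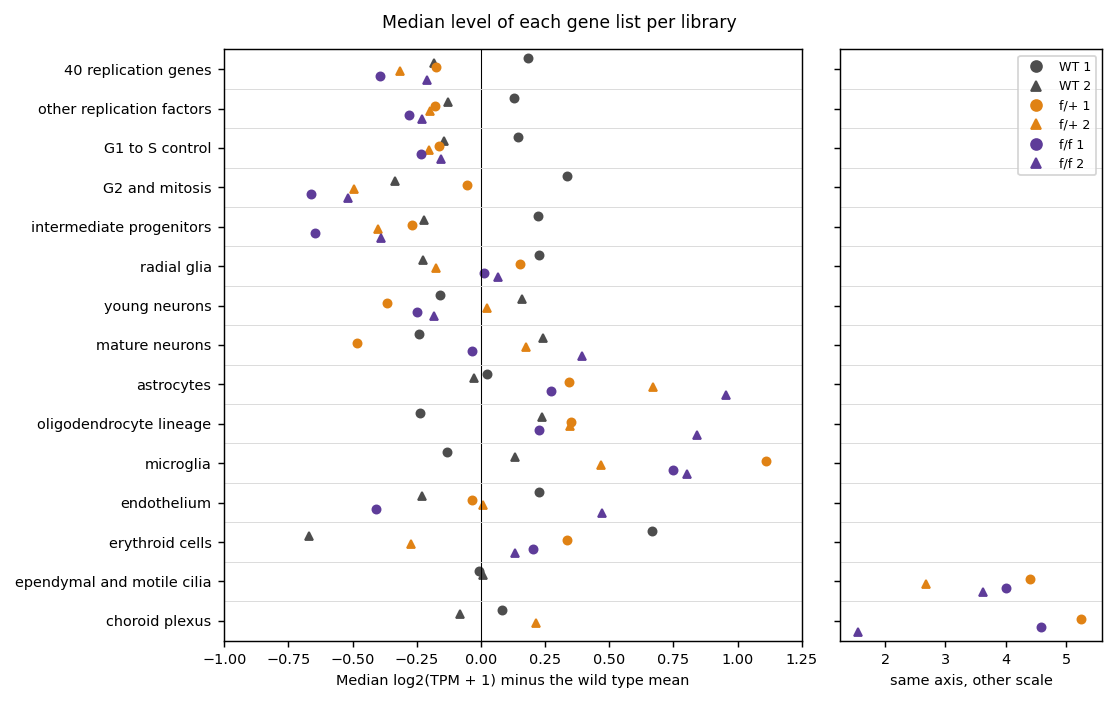
Median log2(TPM + 1) of each gene list relative to the wild type mean (horizontal axis, continued on a second scale at right) in each library (symbols), with lists as rows. In the replication, mitotic and progenitor lists wild type library 1 lies to the right of all other libraries, while microglia and ependymal lists have all floxed libraries to the right of wild type.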

How the data were processed

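RNA was extracted from dissected dentate neuroepithelium and, per the labels' protocols, made into TruSeq libraries for paired-end sequencing. The authors deposited 1 table of TPM values for 35274 genes. The labels' design text gives TopHat 2.0.11 for alignment to mm10 and Cufflinks 2.2.1 for expression, while the submitters' processing notes name FastQC and RSEM. Which of these made the table, and whether strand was used, is not given in the sources used here. TPM keeps no read depth, so depth is unknown and no counting interval was computed.

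The deposited values were put on the log2(TPM + 1) scale, where changes of low genes look too small. The 14518 genes averaging 1 TPM or more entered limma 3.58.1 in R 4.3.3 with all 6 libraries, a term per genotype, an intensity trend and Benjamini-Hochberg adjustment over all genes. Every adjusted p comes from this fit, and SE is limma's. On simulated data for homozygous against wild type over 14505 genes, recovery was 10% for 1.5-fold changes, 64% for 2-fold and 92% for 4-fold changes (50 genes each). Of 131 calls, 3 were false. The simulated noise was drawn for each gene on its own, and the lowest genes were not changed. Shifts shared by many genes, as in wild type library 1, were not simulated, so these rates may not hold for the real libraries. Each role's most abundant member, the members with the smallest p against wild type and the subunits of MCM, GINS and RFC were named by rule, and others after their values were seen. The 40 members and the 14 gene lists were chosen with earlier results of these data known. Positions and exon overlaps came from GENCODE vM21 on GRCm38. Of the 40 members, 11 share exon bases with an opposite-strand gene, among them Cdc45 (6.0%), Lig1 (5.8%) and Fen1 (5.4%), whose reads cannot be told apart if strand was not used. Alternatives covered the pseudocount, the filter, scaling, the trend, the samples in the fit, a replicate block and each library left out. The test of heterozygous means against the midpoint was added after the data were seen.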

Additional observations from a re-analysis of the deposited data

How the results depend on the processing

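Under every alternative run, 0 of the 40 genes passed limma's adjusted threshold in any of the 3 pairwise comparisons, and all medians against wild type stayed below 0. Leaving out each library in turn, the median difference ran from -0.444 to -0.088 for heterozygous and from -0.471 to -0.149 for homozygous against wild type, and from -0.105 to 0.038 for homozygous against heterozygous libraries. The count of genes at an unadjusted p of 0.05 ran from 0 to 16, from 3 to 21 and from 0 to 2 in the same order. Background shares for lower genes also moved, from 2.01% to 13.1%, from 4.02% to 14.9% and from 0.358% to 2.31%. The lowest counts against wild type came without wild type library 1, and also without heterozygous library 2 and without homozygous library 1, and the highest without wild type library 2. Where a genotype was left with 1 library, that library was assumed to vary like the others. For heterozygous against wild type the count of 2 (5%, background 7.63%) became 4 with median-ratio rescaling (10%, background 6.32%). With quantile normalization it became 5 (12.5%, background 7.76%). Leaving out the 2 libraries of highest Ttr left 1 library in each floxed genotype. The median difference was then -0.210 for homozygous against wild type, where that over all genes tested was -0.027. For homozygous against heterozygous libraries it was 0.087, beside 0.050 over all genes tested.

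Several alternatives leave the difference of a gene unchanged by construction. They include the fit without trend, the 2-genotype fit, the replicate block, the filter and leaving out a library of the genotype not compared. Directions kept under these carry no information on stability. Among values of single genes under any alternative, 1159 kept their direction and their side of the adjusted threshold and 37 turned above 0. With median-ratio rescaling, those that turned were Pola1 (0.023), Rfc1 (0.020) and Rfc2 (0.002) in heterozygous and Pola1 (0.007) and Rfc2 (0.008) in homozygous libraries. With quantile normalization they were Rfc1 (0.037) and Rfc2 (0.026) in heterozygous and Rfc2 (0.038) in homozygous libraries. Leaving out the 2 libraries of highest Ttr, they were Rfc2 (0.008) and Ccne2 (0.089) in homozygous tissue. Among fits that left out 1 library, the heterozygous differences that turned, with their ranges, were Mcm10 (-0.207 to 0.072), Cdc45 (-0.341 to 0.030), Gins2 (-0.279 to 0.011), Gins3 (-0.414 to 0.140), Gins4 (-0.262 to 0.088), Pola1 (-0.096 to 0.043), Rfc1 (-0.137 to 0.068), Rfc2 (-0.224 to 0.116), Rfc5 (-0.283 to 0.091) and Rrm1 (-0.451 to 0.018). The homozygous ones were Cdt1 (-0.377 to 0.071), Gins2 (-0.198 to 0.092), Gins3 (-0.390 to 0.164), Gins4 (-0.363 to 0.037), Pola1 (-0.095 to 0.043), Pola2 (-0.438 to 0.037), Rfc1 (-0.181 to 0.024), Rfc2 (-0.199 to 0.142), Rfc5 (-0.299 to 0.074) and Ccne2 (-0.232 to 0.089). The cause was not tested. Over all alternatives limma's adjusted p for homozygous against wild type ran from 0.0823 to 0.499 for Rrm2, from 0.075 to 0.499 for Mcm7, from 0.0824 to 0.507 for Tyms and from 0.088 to 0.577 for Gins1.

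Replicate numbers are shared across genotypes, but same-numbered deviations correlated at 0.21, -0.09 and 0.35 over genes, so they were not taken as pairs. With the replicate block, 0 of 40 genes passed in each comparison (background 0.062%, 1.95% and 0.0138%). At an unadjusted p of 0.05, 3, 11 and 1 genes were lower, or 7.5%, 27.5% and 2.5% of the 40. Background shares for lower genes were 10.4%, 12.5% and 1.78%.

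How many genes were called over the whole table depended on the fit. For homozygous against wild type, 6 genes (0.0413%) were called over the table. With the replicate block it was 283 (1.95%), and with only the 2 genotypes in the fit 393 (2.71%). At such shares, 0 of 40 does not show the 40 genes to be steadier than the rest. With TPM alone the depth behind low genes such as Orc1 is unknown.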
